A study of Mus musculus with 6 samples.

Results

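The genes described here encode the core of transforming growth factor beta (TGF-beta) signalling: 3 ligands (*Tgfb1*, *Tgfb2*, *Tgfb3*), 3 receptors (*Tgfbr1*, *Tgfbr2*, *Tgfbr3*) and 4 SMAD proteins (*Smad2*, *Smad3*, *Smad6*, *Smad7*). They were chosen by gene symbol, and all 10 were found among the 55341 gene names of the deposited count table and among the 16017 genes that had enough counts to be tested. The study sequenced aortic RNA from 3 miRNA-26b-/- mice (libraries M2626, M2627 and M2628) and 3 miRNA-26b+/+ mice (libraries M2629, M2630 and M2631), 1 library per mouse. The mice were 8 weeks old, on the C57BL/6NCrl strain per the labels and fed a normal laboratory diet. The miRNA-26b allele was made in 129/Sv embryonic stem cells as a floxed allele, deleted by tamoxifen in mice carrying CreERT2, after which CreERT2 was bred out, and the lines were first of mixed 129/Sv and C57BL/6 background. Tissue for RNA was explanted from arch and thoracic aorta according to the methods, while the labels speak of endothelial cells.

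TGF-beta ligands are secreted in a latent form that is tethered in the extracellular matrix by latent TGF-beta binding proteins. Once released, a ligand binds the type II receptor TGFBR2, which recruits and phosphorylates the type I receptor TGFBR1, and this kinase phosphorylates SMAD2 and SMAD3, which enter the nucleus and control transcription. SMAD7 and SMAD6 are induced by the pathway and by the related bone morphogenetic protein (BMP) pathway and act back on them: SMAD7 blocks type I receptors of both branches, SMAD6 mainly those of the BMP branch. In the aorta the pathway maintains smooth muscle cells and matrix, and human mutations in genes of several of these proteins, among them *TGFBR1*, *TGFBR2*, *SMAD3* and *TGFB2*, cause thoracic aortic aneurysm.

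The question of the comparison is which transcripts differ when miRNA-26b is absent, so the sequence of the deleted miRNA and the places where it could pair with these genes come first. The mature miRNA-26b-5p lies at chr1:74394324-74394344 on the forward strand of GRCm38, inside an intron of *Ctdsp1*. Its seed, bases 2 to 8, which sets most target recognition, is in capitals below, beside that of miRNA-26a-5p, which the mice still carry at its own loci on chromosomes 9 and 10. Both sequences are RefSeq's.
mmu-miR-26b-5p: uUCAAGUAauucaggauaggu
mmu-miR-26a-5p: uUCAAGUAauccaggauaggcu
The seeds are identical, so a seed site for the deleted 5p arm is also one for miRNA-26a-5p. The deletion removes the 3p arm of the hairpin as well, and sites for that arm were not searched. A site was counted where the longest annotated 3′ untranslated region (UTR) of a gene held TACTTGA, pairing with the whole seed, ACTTGAA, pairing with bases 2 to 7 before an A, or TACTTGAA, which holds both. None of the 10 genes held TACTTGA or TACTTGAA. ACTTGAA occurred at 1 place in *Tgfbr2* and at 1 place in *Smad2*. The *Tgfbr2* site is shown as an example of the weakest of the 3 forms, with the matched bases in capitals, at chr9:116085539-116085567 on the reverse strand of GRCm38.
*Tgfbr2* site: tagaaagagagtagaACTTGAAgcctgga
Such sites are common. Among the 13541 tested genes with an annotated 3′ UTR, 22.2% held at least 1 of the 3 forms, and among the 648 with a 3′ UTR of at least 5000 bases, as *Tgfbr2* (6085 bases) and *Smad2* (6233 bases) have, 65.4% did. The 3′ UTRs of the other 8 genes, from 436 bases in *Tgfb1* to 4154 bases in *Tgfbr1*, held none of these letters.

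The targeted *Mir26b* gene received no reads in any miRNA-26b-/- library and 0, 20 and 0 reads in M2629, M2630 and M2631. These numbers are too low to serve as a check of the genotypes. Total counts per library were between 25706728 and 33345037. Of the marker genes of other cell types, smooth muscle genes were the most abundant by far, with summed levels of 31085 to 41966 CPM, read counts scaled to a common library size, against 406 to 1643 CPM for 6 endothelial genes, which goes against the label of endothelial cells. The smooth muscle genes *Acta2* and *Tagln* alone had 14188 to 18289 and 5850.3 to 7917.4 CPM. The endothelial sum was 406 CPM in M2626 and 440 CPM in M2627, both miRNA-26b-/-, and between 1142 and 1643 CPM in M2628 and the 3 miRNA-26b+/+ libraries. *Pecam1*, *Cdh5*, *Tek*, *Tie1* and *Vwf* were each lower in M2626 and M2627 than in every other library. *Kdr* did not follow, with 22.0 CPM in M2626, 29.6 in M2627, 8.82 in M2628 and 19.9 to 31.7 in controls. M2627 also held the most RNA of sympathetic neuron genes (247 CPM, against 9.25 to 54.2 in the others), cardiac muscle genes (350 CPM, against 18.3 to 301) and skeletal muscle genes (88.2 CPM, against 3.24 to 30.6). Summed Schwann cell genes were higher in all 3 miRNA-26b-/- libraries (296 to 437 CPM) than in any control (215 to 265 CPM), with 4 of 6 genes higher and 1 lower at an unadjusted p-value of 0.05 by edgeR. Of the 6 skeletal muscle genes, 5 were higher by the same test, while 6.46% of all genes tested passed in either direction. Only *Tnnt3* and *Mylpf* separated the groups. In M2628, *Myh4* and *Tnni2* had 0 CPM and *Acta1* 0.32 CPM. The skeletal muscle sum of M2628 was 8.39 CPM, inside the 3.24 to 11.2 CPM of the controls. The macrophage sum split the libraries as the endothelial sum did, with 248 CPM in M2626 and 313 CPM in M2627. It was 439 to 504 CPM in the controls and 732 CPM in M2628. *Cd68* did not follow, with 8.86 CPM in M2626, 4.11 in M2627, 26.7 in M2628 and 4.82 to 10.4 in controls. The fibroblast sum was 8034 CPM in M2628 and 4401 to 5487 CPM in the other libraries. M2627 had the highest adipocyte sum (1845 CPM, against 439 to 1228) and the lowest erythroid sum (85.6 CPM, against 354 to 929). None of the fibroblast, adipocyte, macrophage or erythroid genes passed the unadjusted threshold with edgeR. Of the endothelial genes *Tek* passed, lower in miRNA-26b-/- mice (unadjusted p = 0.0378, edgeR). Of the sympathetic neuron genes *Th* and *Tubb3* passed, both higher (unadjusted p = 0.0229 and 0.0379, edgeR). *Th* had 37.0 CPM in M2627 and 0 CPM in M2626 and M2628. The part of any of these cell types in the results was not tested. In bulk RNA, fewer cells of a type and less RNA per cell cannot be told apart.

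The 10 genes spanned a wide range of abundance. To compare genes, CPM were divided by the summed exon length in kb, giving RPKM. *Tgfb3* was the most abundant, with a mean of 79.0 RPKM over the 6 libraries and a range of 64.5 to 97.4 that overlapped with no other member. *Tgfbr2*, the type II receptor, followed with 28.9 RPKM, then *Tgfbr1*, the type I receptor, with 25.1, *Tgfbr3*, the co-receptor betaglycan that presents ligand to TGFBR2, with 22.5, and *Smad6* with 21.9. The order of these 4 genes was not firm, as each was above the next in only 4 of 6 libraries. *Tgfb2* had a mean of 14.98 RPKM and was below *Smad6* in 4 of 6 libraries. *Smad7* (10.6 RPKM), *Tgfb1* (7.91) and *Smad3* (7.76) formed the next tier, in which each was above the next in 3 of 6 libraries. *Smad2* was the least abundant, with 3.63 RPKM, and lay below *Smad3* in every library. Part of this order depends on the length used. Per kb of the main coding transcript, *Tgfb1* had a mean of 18.3 CPM and left *Smad7* (11.3) and *Smad3* (8.45) behind, and *Tgfb2* (24.9) came to lie beside *Tgfbr3* (24.2) and *Smad6* (23.6), while *Tgfb3* (79.0) stayed first and *Smad2* (3.94) last.

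**Figure D1:**
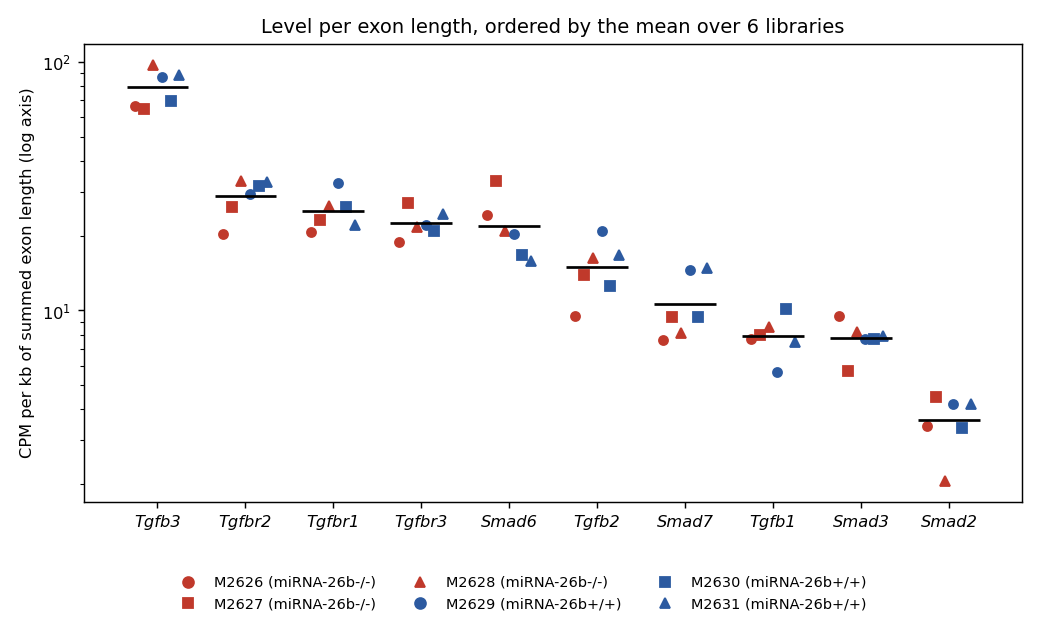
Level of each of the 10 genes in CPM per kb of summed exon length (log axis), 1 point per library, with the mean over the 6 libraries as a bar. *Tgfb3* lies above every other gene in all libraries, the ranges of the 3 receptors and *Smad6* overlap, and *Smad2* is lowest, at 2.06 to 4.49.

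The most abundant ligand transcript in these vessels was thus *Tgfb3*. It gave between 74.7% and 79.7% of the summed ligand RPKM in each of the 6 libraries, *Tgfb2* between 11.4% and 18.5%, and *Tgfb1*, the ligand most often studied in immune and fibrotic disease, between 4.97% and 11.01%. The shares of *Tgfb3* were 79.4%, 74.7% and 79.7% in miRNA-26b-/- mice, against 76.6%, 75.4% and 78.6% in controls, so the groups overlapped. The order rests partly on the length used: the annotated exons of *Tgfb1* come from 5 transcripts and sum to 5042 bases. This is 2.32 times its main coding transcript of 2175 bases. With the length of the coding transcript instead, *Tgfb3* still gave the most in every library (60.8% to 67.5%), *Tgfb2* gave 15.8% to 25.8% and *Tgfb1* 9.70% to 20.7%.

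**Figure D2:**
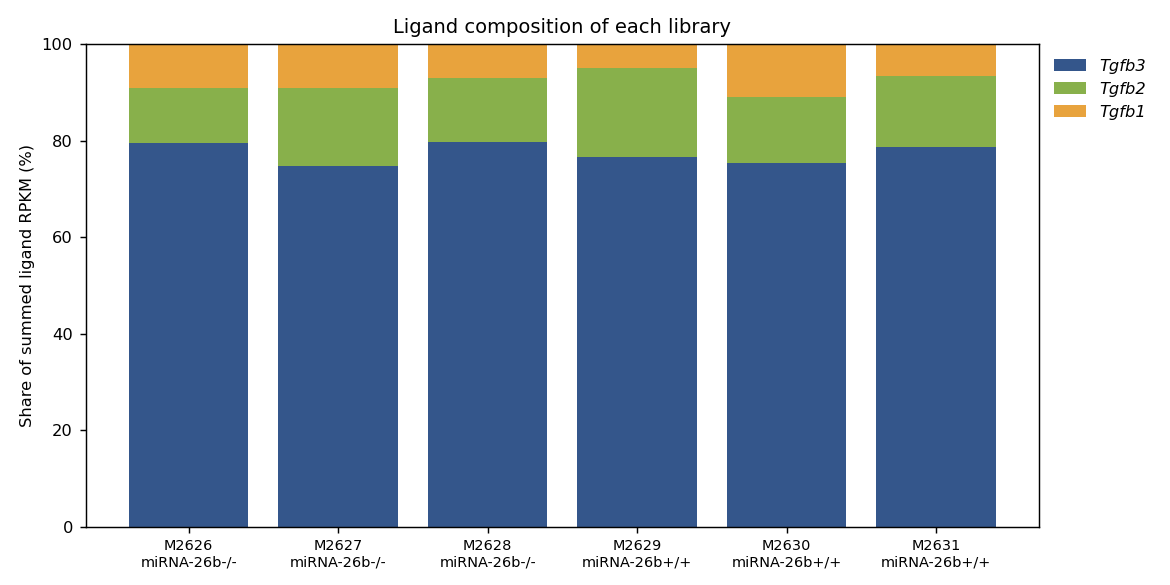
Share of the summed ligand RPKM (%) given by *Tgfb1*, *Tgfb2* and *Tgfb3* in each library, stacked to 100%. In all 6 libraries *Tgfb3* gives at least 74.7%, and no ligand separates the miRNA-26b-/- from the miRNA-26b+/+ libraries.

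None of the 3 ligands passed the test between the genotypes, with unadjusted p-values of 0.802 (*Tgfb1*), 0.156 (*Tgfb2*) and 0.545 (*Tgfb3*) from edgeR. *Tgfb3* (chr12:86056745-86079041, GRCm38, 7 exons) had 224, 218 and 329 CPM in M2626, M2627 and M2628 and 294, 236 and 301 CPM in M2629, M2630 and M2631. The highest value was that of a miRNA-26b-/- mouse and so were the lowest ones, and the log2 fold change was -0.11 (95% interval -0.48 to 0.26). Of its exon bases, 12.4% are shared with transcripts on the opposite strand, *Gm37804* and *Gm48008*, whose reads cannot be told apart in these unstranded counts. *Tgfb2* (chr1:186622792-186705989) had 55.1, 80.7 and 94.2 CPM in miRNA-26b-/- mice, against 121, 72.5 and 96.6 CPM in controls. The groups overlapped widely, with a log2 fold change of -0.33 (95% interval -0.81 to 0.14). *Tgfb1* (chr7:25687002-25705077) had 38.6, 40.0 and 43.2 CPM against 28.5, 51.3 and 37.7 CPM. All 3 miRNA-26b-/- values fell inside the range of the miRNA-26b+/+ values, and the log2 fold change was 0.06 (95% interval -0.44 to 0.56).

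The 3 receptors did not pass the test either. *Tgfbr2* (chr9:116084293-116175360) had 166, 213 and 272 CPM in miRNA-26b-/- mice, against 241, 259 and 269.98 CPM in controls, a log2 fold change of -0.24 (95% interval -0.60 to 0.12). The 2 miRNA-26b-/- libraries below all controls, M2626 and M2627, are those with the lowest endothelial and macrophage sums. M2628, with the most *Tgfbr2*, had the highest endothelial, macrophage and fibroblast sums. The part of these cell types in the *Tgfbr2* level was not tested. *Tgfbr1* (chr4:47353222-47414931) had 135, 151 and 172 CPM against 213, 170.2 and 144 CPM, a log2 fold change of -0.21 (95% interval -0.57 to 0.16), with overlapping groups. *Tgfbr3* (chr5:107106570-107289629) had 124, 177 and 142 CPM against 144, 136 and 160.3 CPM, and its log2 fold change of 0.01 (95% interval -0.34 to 0.36) was the nearest to 0 beside that of *Smad3*. The ratio of type II to type I receptor, *Tgfbr2* over *Tgfbr1* in RPKM, ran from 0.980 to 1.27 in the miRNA-26b-/- and from 0.902 to 1.49 in the miRNA-26b+/+ libraries.

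The receptor-regulated SMADs, which carry the signal of the TGF-beta receptors to the nucleus, did not pass the test, with unadjusted p-values of 0.421 (*Smad2*) and 0.971 (*Smad3*) from edgeR. Their values were spread more widely among the miRNA-26b-/- mice, as were those of *Tgfb3*, *Tgfbr2*, *Tgfbr3* and *Smad6*. The controls were the more widely spread for *Tgfb1*, *Tgfb2*, *Tgfbr1* and *Smad7*. *Smad3* (chr9:63646767-63757994) had 52.5, 31.5 and 45.3 CPM in the miRNA-26b-/- libraries, on either side of the narrow range of the controls at 42.7, 42.4 and 43.6 CPM. Its log2 fold change was -0.01 (95% interval -0.48 to 0.47), and it was 0.01 when scaled by library size. *Smad2* (chr18:76241580-76310963) had 30.2, 39.4 and 18.1 CPM against 36.9, 29.6 and 36.9 CPM, a log2 fold change of -0.23 (95% interval -0.81 to 0.36). M2627 had the most *Smad2* and the least *Smad3* of all 6 libraries, M2628 the least *Smad2*, so that *Smad3* over *Smad2* in RPKM ran from 1.27 in M2627 to 3.97 in M2628, against 1.83 to 2.27 in the controls.

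The inhibitory SMADs were the only members past the unadjusted threshold with all 6 libraries, and they lay in opposite directions. *Smad6* was 1.49-fold higher and *Smad7* 1.54-fold lower in miRNA-26b-/- mice at an unadjusted p-value under 0.05, and neither passed after adjustment over all genes tested. *Smad6* (ENSMUSG00000036867, chr9:63953076-64022059, reverse strand, 4 exons in its coding transcript) had 78.0, 107 and 66.9 CPM in M2626, M2627 and M2628 and 65.3, 53.6 and 50.6 CPM in M2629, M2630 and M2631. Every miRNA-26b-/- value was above every miRNA-26b+/+ value, but the gap between M2628 and M2629 was narrow. The group means were 83.9 ± 20.6 and 56.5 ± 7.77 CPM (SD, n = 3 each). This is a difference of 0.58 on the log2 scale (standard error 0.207, 95% interval 0.13 to 1.02, unadjusted p = 0.0141, Benjamini-Hochberg adjusted p = 0.736, edgeR quasi-likelihood). The highest value was in M2627, and without that library the log2 fold change was 0.36 (unadjusted p = 0.124, edgeR). It was 0.49 without M2631 (unadjusted p = 0.0606, edgeR). M2627 is also the library with the most sympathetic neuron, cardiac muscle, skeletal muscle and adipocyte RNA and the least erythroid RNA, whose part in its *Smad6* level was not tested.

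*Smad7* (ENSMUSG00000025880, chr18:75367529-75395935, forward strand, 4 exons in its coding transcript) had 34.5, 42.5 and 36.6 CPM in miRNA-26b-/- mice, against 65.9, 42.6 and 66.7 CPM in controls. M2629 and M2631 stood well above the rest, while M2630 lay level with the highest miRNA-26b-/- library. The groups were barely separate with TMM scaling and overlapped when CPM were scaled by library size alone, with 42.8 CPM in M2627 and 42.1 CPM in M2630. The group means were 37.8 ± 4.16 and 58.4 ± 13.7 CPM (SD, n = 3 each). This is a difference of -0.62 on the log2 scale (standard error 0.222, 95% interval -1.10 to -0.15, unadjusted p = 0.0131, Benjamini-Hochberg adjusted p = 0.736, edgeR quasi-likelihood). Without M2629 it was -0.53 (unadjusted p = 0.0602, edgeR) and without M2631 also -0.53 (unadjusted p = 0.0556, edgeR). Neither *Smad6* nor *Smad7* shares exon bases with another annotated gene.

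**Figure D3:**
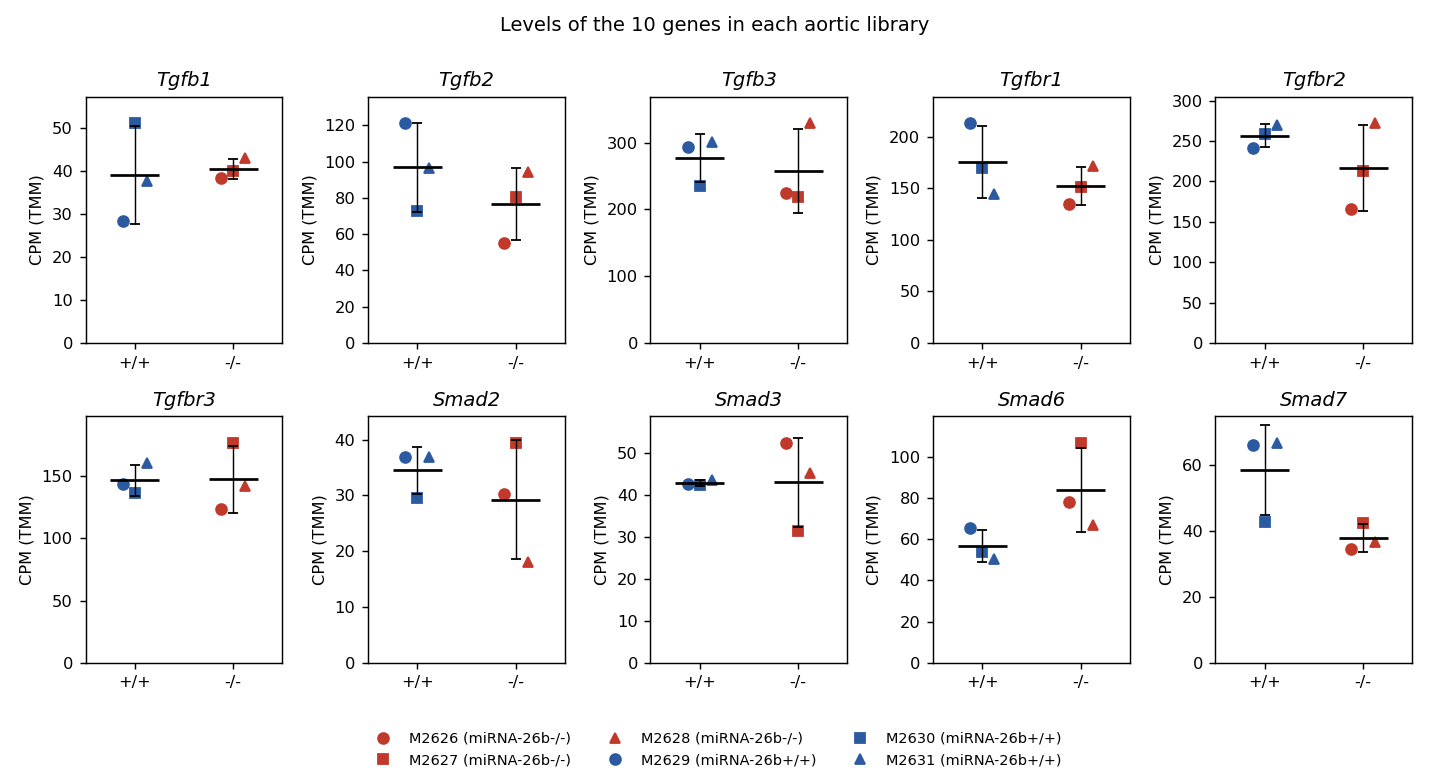
CPM of each of the 10 genes by genotype, 1 point per mouse, with the mean and SD over 3 mice in black. The genotypes separate for *Smad6* and, narrowly, for *Smad7*, and overlap for the other 8 genes.

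Set against each other within a library, the 2 genes give a ratio that does not depend on the scaling. *Smad6* over *Smad7* in RPKM was 3.19, 3.55 and 2.58 in M2626, M2627 and M2628 and 1.40, 1.77 and 1.07 in M2629, M2630 and M2631. The 3 miRNA-26b-/- ratios were all above the 3 miRNA-26b+/+ ratios. With TMM scaling both genes already separated the groups, in opposite directions, so their ratio had to separate them as well and adds no evidence. This ratio was chosen after the values of both genes were seen and was not tested. The sum of both inhibitory SMADs over the sum of *Smad2* and *Smad3* did not separate the groups, at 2.47 to 4.20 and 2.37 to 2.94.

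Beside the endothelial sums, the inhibitory SMADs lay as follows. *Smad6* was highest in M2626 and M2627, where the endothelial sum was lowest. In M2628, whose endothelial sum was above those of the controls, *Smad6* was 66.9 CPM against at most 65.3 CPM in a control. *Smad7* was between 34.5 and 42.5 CPM in all 3 miRNA-26b-/- libraries. The part of endothelial RNA in either level was not tested. *Eng*, which encodes the endothelial co-receptor endoglin, had 102, 149.8 and 155 CPM in miRNA-26b-/- mice, against 159.7, 189 and 195 CPM in controls.

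**Figure D4:**
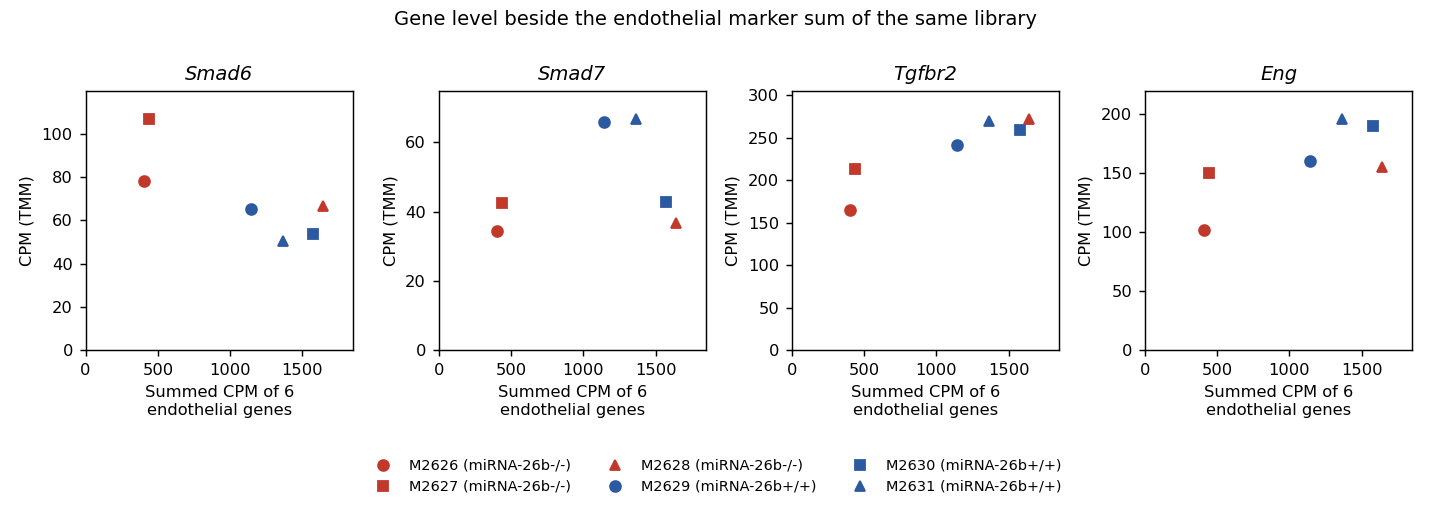
CPM of *Smad6*, *Smad7*, *Tgfbr2* and *Eng* against the summed CPM of 6 endothelial genes (*Pecam1*, *Cdh5*, *Kdr*, *Tek*, *Tie1*, *Vwf*), 1 point per library. The miRNA-26b-/- libraries M2626 and M2627 lie apart at 406 and 440 CPM of endothelial genes, with low *Tgfbr2* and high *Smad6*.

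Among the 10 genes, 2 had unadjusted p-values under 0.05, with *Smad6* higher and *Smad7* lower, while 6.46% of all genes tested did (3.4% higher and 3.07% lower). The groups did not overlap for 2 of the 10 genes, 1 higher and 1 lower, against 11.5% of all genes tested (5.65% higher and 5.88% lower). After adjustment 0 of the 10 passed with edgeR's quasi-likelihood test and 0 with DESeq2 or limma voom, against 1 gene (0.00624%) of all genes tested. The median log2 fold change of the members was -0.16, with 7 of 10 negative. Among these was *Smad3* at -0.01, which changed sign with library size scaling and with DESeq2. For all genes tested the median was 0.01, with 7789 of 16017 negative. The members were well measured: every library held at least 510 reads of each, and the median standard error of their log2 fold changes was 0.214, against 0.34 for all genes tested. The count of members past the unadjusted threshold turned on single libraries. It was 5 without M2628, when *Tgfb2* (log2 fold change -0.50), *Tgfb3* (-0.33) and *Tgfbr2* (-0.43) joined on the lower side and 10.8% of all genes passed. It was 1 without M2627 or without M2629, and 0 without M2631. The miRNA-26b-/- libraries that remain without M2628 are the pair with the lowest endothelial and macrophage sums, whose part in this count was not tested.

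**Figure D5:**
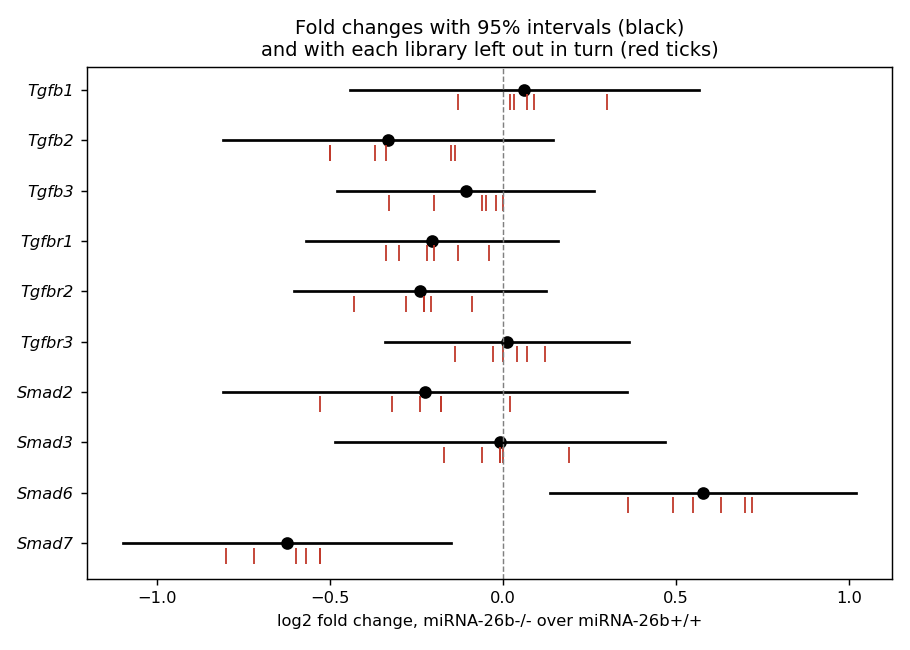
Log2 fold change of each gene, miRNA-26b-/- over miRNA-26b+/+, with its 95% interval derived from edgeR's quasi-likelihood test (black). Red ticks give the values with each of the 6 libraries left out in turn. The intervals of *Smad6* (0.13 to 1.02) and *Smad7* (-1.10 to -0.15) leave out 0 and those of the other 8 genes hold it.

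The available promoters of the members were searched for a short palindrome. *Smad6* is shown because its promoter held the match. In the 300 bases around its annotated start, taken from RefSeq for GRCm38.p6, the palindrome GTCTAGAC, known as a SMAD binding element, runs from base -4 to base 4 of the start site. It is given in capitals, at chr9:64022045-64022074 on the reverse strand.
*Smad6* start site: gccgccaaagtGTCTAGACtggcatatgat
The same letters occur in 0.213% of the 32851 promoter sequences of that length, and among the 7 promoters found for 6 of the 10 genes (*Tgfb1*, *Tgfb2*, *Tgfbr1*, *Tgfbr2*, *Smad3* and *Smad6*) in that of *Smad6* alone. No promoter sequence was available for *Tgfb3*, *Tgfbr3*, *Smad2* or *Smad7*, so these were not searched. A match is a description of the sequence and not of binding.

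Of the rest of the pathway, 67 genes in 5 lists were tested besides the members, and edgeR put 8 below an unadjusted p-value of 0.05, of which 2 were higher and 6 lower in miRNA-26b-/- mice, where 6.46% of all genes passed. Leaving out single libraries moved this count from 1 without M2630 to 19 without M2628. The share of all genes that passed was 4.97% without M2630 and 10.8% without M2628. The count of listed genes was 4 without M2626 and 5 without M2627 or M2631. With all 6 libraries, the median log2 fold change of the 67 genes was -0.03.

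Of the genes that store or release latent ligand, 11 of 12 were tested, with 1 higher, 1 lower and a median log2 fold change of -0.17. *Itgb8*, the integrin chain that frees TGF-beta from its latent complex, had 14.2, 18.2 and 13.3 CPM in miRNA-26b-/- mice, against 10.8, 8.15 and 4.56 CPM in controls, without overlap, a log2 fold change of 0.97 (unadjusted p = 0.0251, edgeR). *Ltbp2*, a matrix protein of the same family as the latent TGF-beta binding proteins, was lower, with 137, 189 and 182 CPM against 193, 224 and 226 CPM (log2 fold change -0.34, unadjusted p = 0.0494, edgeR). The most abundant of these genes per kb, *Ltbp4* and *Ltbp1*, both of which bind latent ligand, had log2 fold changes of -0.12 and -0.17 and did not pass.

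Of the 6 other receptors and co-receptors, 2 were lower and none was higher. *Cd109*, a surface protein that binds TGF-beta and dampens its signalling, had 77.2, 62.8 and 78.3 CPM in miRNA-26b-/- mice, against 108, 97.0 and 116 CPM in controls. Its groups were well apart, with a log2 fold change of -0.56 (95% interval -0.92 to -0.20, unadjusted p = 0.00498, adjusted p = 0.734, edgeR). *Eng* was the other, with a log2 fold change of -0.41 (unadjusted p = 0.0324, edgeR). Endothelial sums were low in M2626 and M2627. In M2628 the endothelial sum was the highest, at 1643 CPM, and *Eng* was 155 CPM, below all controls. The part of endothelial RNA in the *Eng* level was not tested. *Acvrl1*, the type I receptor that pairs with endoglin in endothelium, had a log2 fold change of -0.17 and did not pass.

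Of 13 regulators of SMAD proteins, 1 was higher. *Wwp2*, a ubiquitin ligase that acts on SMADs, had 542, 361 and 329.96 CPM in miRNA-26b-/- mice, against 314, 318 and 305 CPM in controls, with M2626 far above the rest (log2 fold change 0.39, unadjusted p = 0.0373, edgeR). *Ski*, a SMAD co-repressor and the most abundant of these per kb, had a log2 fold change of 0.01, and *Stub1*, a ubiquitin ligase, 0.27. Neither passed.

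The target genes that TGF-beta is known to induce numbered 16, of which 3 were lower and none was higher at that threshold. *Junb*, an immediate early transcription factor, had 26.4, 27.6 and 58.2 CPM in miRNA-26b-/- mice, against 58.0, 85.2 and 52.4 CPM in controls, with M2628 at the level of the controls (log2 fold change -0.80, unadjusted p = 0.0145, edgeR). *Klf10*, another early response gene, had 15.1, 17.2 and 18.2 CPM against 30.2, 34.1 and 17.5 CPM (log2 fold change -0.68, unadjusted p = 0.0383, edgeR). *Fn1*, which encodes fibronectin, had 4624, 4265 and 5619 CPM against 5339.9, 6606 and 6666 CPM (log2 fold change -0.36, unadjusted p = 0.0186, edgeR). The contractile genes *Acta2* (log2 fold change -0.05) and *Tagln* (0.01), the most abundant of the list per kb, did not pass, and the list's median was -0.03.

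In the BMP and activin branches, which share SMAD6 and SMAD7 as inhibitors, 0 of 21 genes tested had an unadjusted p-value under 0.05 with edgeR's quasi-likelihood test. The ID genes, direct targets of BMP signalling, were led in abundance per kb by *Id3* and *Id1*, the most abundant of this list, with log2 fold changes of -0.25 and 0.14. The median was -0.02, with 10 genes positive and 11 negative.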

How the data were processed

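Total RNA of aortic arch and thoracic aorta was sequenced by the authors from TruSeq libraries. Alignment by the authors was with STAR to GRCm38 (mm10), and they deposited read counts per gene name from featureCounts 1.6.4, made per the file headers with GENCODE release M21 over exons, ignoring strand and adding a read that overlaps several genes to all of them. The methods name release M23. A second deposited table, which holds log2 CPM and the authors' own fold changes and p-values, was not used.

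Kept were genes (16017 of 55341) whose counts summed to 2 or more and which exceeded 1 CPM in 2 or more libraries. They were scaled by TMM and tested with edgeR 4.0.16 (quasi-likelihood, prior count 0.125) in R 4.3.3. Standard errors were derived as the absolute log2 fold change over the square root of the F statistic. The 95% intervals were derived from these with the t distribution. P-values were adjusted by Benjamini-Hochberg over all genes tested. They weigh the difference between the groups against the variation between these mice, which edgeR estimates by sharing information across genes. An exact permutation test of 3 against 3 libraries cannot give a p-value under 0.1. DESeq2 1.42.0 and limma 3.58.1 served as alternatives, besides other scalings and filters and leaving out each library. Counts were simulated with 200 genes changed by 2 on the log2 scale among 15054 genes. The procedure recovered 90.1% of those it could fit at an unadjusted p-value under 0.05, with a median log2 fold change of 1.98. It called 6.55% of the unchanged genes, a larger share than the threshold of 0.05 allows for, and 6.46% of all genes tested passed in the real data. The simulation drew each gene independently and held no shared differences in cell content between libraries. The 2 rates therefore do not tell how many of the real calls are false. The planted change exceeded those of *Smad6* (0.58) and *Smad7* (-0.62), so recovery of changes of that size was not measured. CPM were scaled by TMM, and RPKM divide them by the exon length of the count table.

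The members and lists were chosen with earlier results of these data known. Named are all 10 members and, of the 5 pathway lists, those past the unadjusted threshold of 0.05 and the 2 most abundant per kb. Genes were placed with GENCODE M21 and sequences taken from RefSeq (GRCm38.p6) and the GENCODE M21 transcripts.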

Additional observations from a re-analysis of the deposited data

How the results depend on the processing

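The members past an unadjusted p-value of 0.05 numbered 2 under each of the other scalings, tests and filters, and from 0 to 5 with each library left out in turn. Those past the adjusted threshold numbered 0 throughout. All genes past the unadjusted threshold ran from 686 to 1692, and the 67 listed pathway genes from 1 to 19, with a library left out. The log2 fold change of *Smad6* was from 0.36 to 0.72 and that of *Smad7* from -0.80 to -0.53 with a library left out, and each passed the unadjusted threshold in 4 of 6 such fits. Their adjusted p-values over the alternatives (edgeR, DESeq2 and limma) ran from 0.161 to 0.984 and from 0.364 to 0.984. *Smad3*, near 0, changed sign to 0.01 by library size, with DESeq2 and with the earlier quasi-likelihood method of edgeR, and to 0.00 without the CPM filter. With a library left out, signs also changed for *Tgfb1* (-0.13 to 0.30), *Tgfb3* (-0.33 to 0.00), *Tgfbr3* (-0.14 to 0.12), *Smad2* (-0.53 to 0.02) and *Smad3* (-0.17 to 0.19). The cause was not tested. Of 160 recomputed member fold changes, 142 kept both direction and side of the unadjusted threshold. Chosen after seeing the data were the coding transcript length, which moved the mean ligand shares from 7.99% to 15.4% for *Tgfb1*, from 14.6% to 20.2% for *Tgfb2* and from 77.4% to 64.4% for *Tgfb3*, and scaling by library size for the overlap of groups, which left 1 member without overlap in place of 2. No paired analysis was possible because the labels give no number that links a miRNA-26b-/- to a miRNA-26b+/+ mouse.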

Other observations

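Fold changes were also set beside sites for the seed of miRNA-26b-5p over all genes tested that have an annotated 3′ UTR. The 689 genes with TACTTGAA in their longest annotated 3′ UTR had a median log2 fold change of 0.00, the 3000 genes with any of the 3 forms 0.00 and the 10541 genes with none 0.02. Of the 689 genes, 21 were higher and 21 lower in miRNA-26b-/- mice at an unadjusted p-value under 0.05, 6.1% in all, beside 6.33% of the genes with none. These are descriptions without a test, and the 3′ UTRs of the genes with a site were longer, with a median of 2822 bases for TACTTGAA and 1109 bases for none.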
